A study of Rattus norvegicus with 6 samples.

Results

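Collagens, laminins and integrins form the matrix around cells and the receptors that hold cells to it. The members were all probe sets whose only gene symbol in the array's annotation is a collagen chain (Col, number, a, number), a laminin chain (Lama, Lamb or Lamc with a number), a nidogen or perlecan, or begins with Itga or Itgb. There were 59 such probe sets among 29214, standing for 57 genes. They comprised 25 collagen genes (27 probe sets), 7 laminin chains and the nidogen Nid2, and 24 integrin-named genes. Of the last, 20 are integrin subunits and 4 are not: Itgb1bp1, Itgb1bp2 and Itgb3bp are named for binding an integrin tail, and Itgbl1 is a secreted integrin-like protein. Another probe set, shared by Lamc3 and Aif1l, was left out. Chains that are prominent in islet and vascular matrix, among them Col4a2, Col18a1, Lama4, Lamb1, Nid1, perlecan (Hspg2), Itga3 and Itgav, had no probe set with a single symbol in the annotation and are not analysed here.

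Total RNA came from islet cells of male Wistar rats, enriched for beta cells by flow sorting on autofluorescence and on forward and side scatter, and called cultured in the design text, for a time that is not given. The day 20 group held 3 preparations from suckling rats at postnatal day 20, and the adult group 3 from young adult rats of about 2 months weighing 250 to 280 g. The sort uses no antibody, and the labels call the preparations biological replicates without giving the animals in each, so p-values measure the spread between these preparations. With 3 arrays at each age, their number limits the precision. Values are log2 signals after RMA, a method that corrects, normalizes and summarises the probes of a set, in which a difference of 1 is 2-fold, and levels of different probe sets are not set against each other.

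Basement membranes are thin sheets in which a network of type IV collagen and a network of laminin are joined by nidogens and perlecan. A laminin is a trimer of an alpha, a beta and a gamma chain. Integrins are pairs of an alpha and a beta subunit that bind matrix outside the cell and link to actin or keratin filaments inside. In rodent islets beta cells are thought to lie against a basement membrane made largely by the endothelial cells of islet capillaries, and they bind it through beta1 integrins.

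The arrays were checked against cell type markers. Ins1 and Ins2, the rodent insulin genes, had mean signals of 14.31 and 14.30 in adult and 13.996 and 14.10 at day 20. Markers of acinar cells, the enzyme-making cells around the islets, also gave high signals: the 13 measured had array means of 13.83 to 14.07 over all 6 arrays, and limma called 0 of them, with 2 at an unadjusted p under 0.05. Most of these probe sets, and those of the insulin genes, lay close to the highest signal of any probe set on an array (14.47 to 14.71), so the lack of a call says little about a change in their RNA. The 8 beta cell markers averaged 11.64 to 12.13 over the adult arrays and 10.31 to 10.92 over the day 20 arrays, and 7 markers of other endocrine cells 8.48 to 8.78 and 9.50 to 9.82. The latter mean covers a wide range. Gcg, the glucagon gene, had means of 13.35 in adult and 14.08 at day 20, and Sst, the somatostatin gene, 11.58 and 12.47. Ghrl, the lowest, had means of 5.96 and 6.31. Of the beta cell markers 6 were called higher in adult and 0 lower, and of the other endocrine markers 5 lower and 0 higher. Over all genes 11.8% were called higher and 10.9% lower. Array medians lay between 6.35 and 6.39, and the first quartile of an array between 4.91 and 4.94. Detection calls were not used here, so a low signal is not shown to be above background.

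Most collagen, laminin and integrin genes did not differ detectably between the ages. Those that did were 4 collagens, 3 laminin chains and Nid2, 4 integrin subunits and Itgb1bp1. Of the 57 genes, 13 passed the test (limma, Benjamini-Hochberg over 14506 genes, adjusted p under 0.05), which is 22.8% of them. Over all genes tested the share was 22.7%, so the members were called as often as genes in general. In adult 5 were higher and 8 lower, beside 11.8% and 10.9% of all genes in these directions. The median difference, adult minus day 20, was -0.05 over the members and 0.01 over all genes. Groups did not overlap for 18 of the 57 genes, against 39.6% of all genes. By family, 4 of 25 collagen, 4 of 8 laminin or nidogen and 5 of 24 integrin-named genes passed. With the mean of 12 pan-endocrine genes as a covariate, which leaves 3 residual degrees of freedom, 2 of the 13 passed (Nid2 and Itgb4), and all 13 kept their sign. This mean was itself higher in each adult array (10.55 to 11.24) than in any day 20 array (9.39 to 10.40). The covariate is thus partly confounded with age, and calls over all genes also dropped, to 307 higher and 466 lower.

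**Figure D1:**
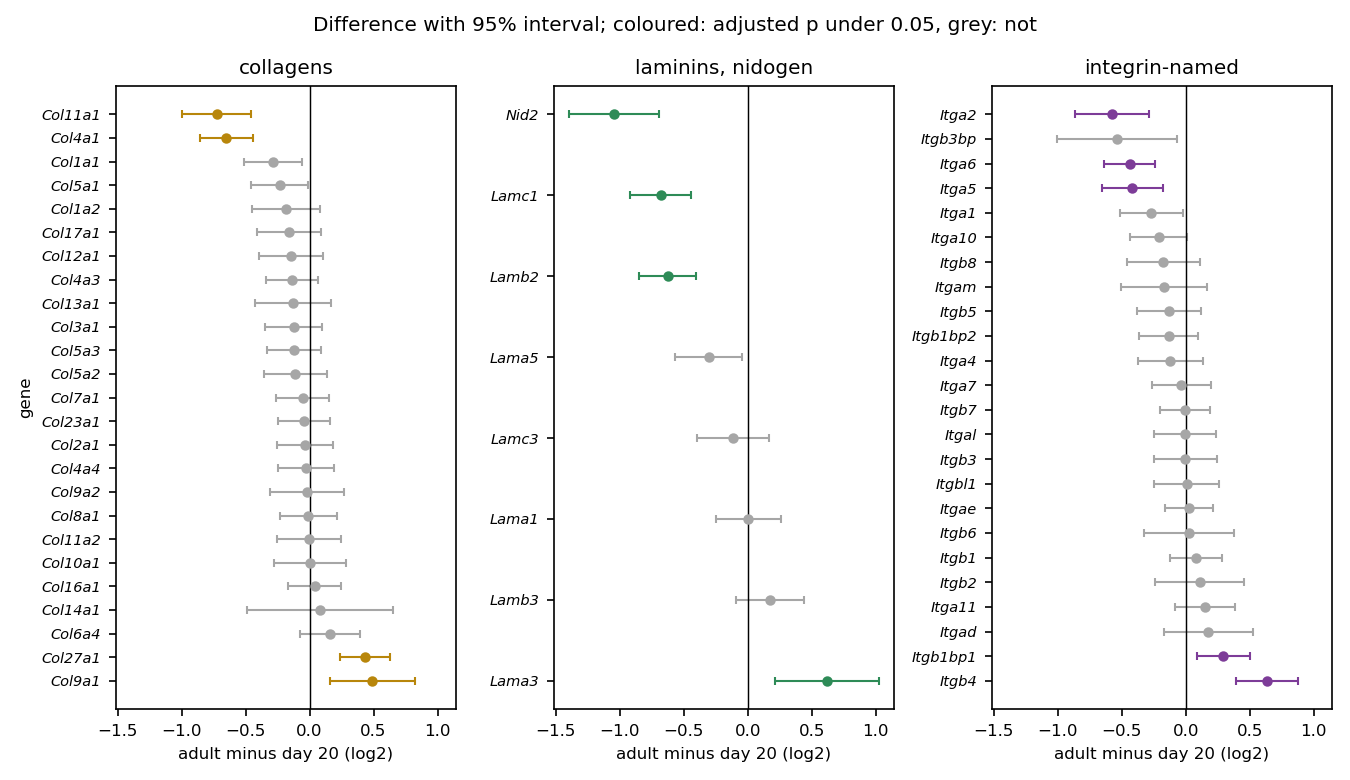
The plot gives the difference between adult and day 20 (log2, adult minus day 20) of each of the 57 genes with its 95% interval, in a panel for each family. Coloured points passed the threshold, grey ones did not, and of the members Nid2 alone reached a difference of 1 in size.

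**Figure D2:**
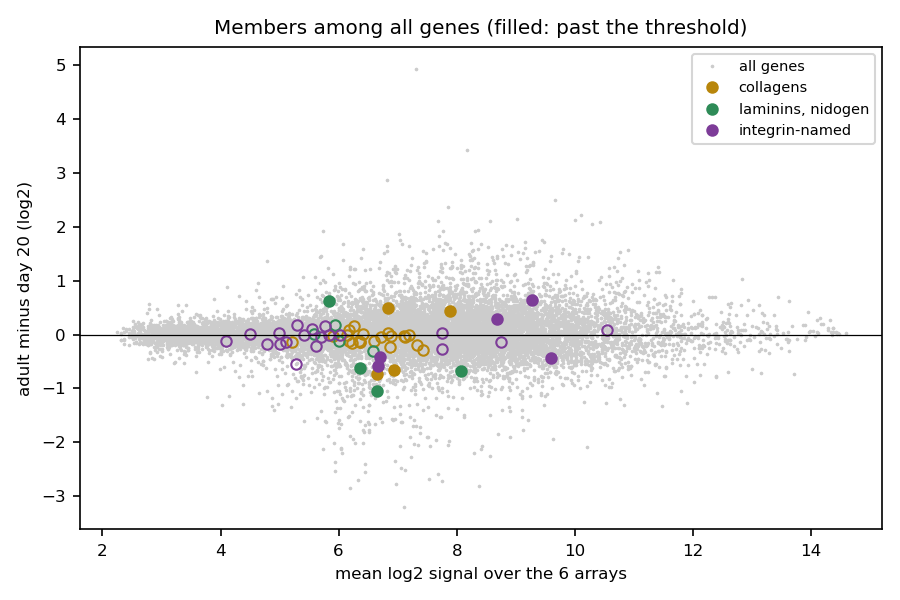
Each gene's difference (adult minus day 20, log2) is plotted against its mean log2 signal over the 6 arrays, with all 14506 genes in grey and the members in colour, filled where they passed the threshold. Of the 57 members 30 lie below the array median, and 3, Itga6, Itgb1 and Itgb4, lie above a mean of 9.

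Among the collagens, a chain of basement membranes and a fibrillar chain of cartilage fell with age. Col4a1 encodes a chain of the common type IV collagen of basement membranes. Its log2 signals were 6.55, 6.60 and 6.69 in the adult arrays (replicates 1 to 3) and 7.38, 7.21 and 7.20 at day 20. Every day 20 value lay above every adult value, and the level was 1.57-fold higher at day 20 (7.26 ± 0.10 versus 6.61 ± 0.07, SD, n = 3, adjusted p = 0.00159). Col11a1, a chain of a minor fibrillar collagen that regulates fibril diameter, read 6.03, 6.46 and 6.38 in adult and 7.06, 6.99 and 6.99 at day 20. The day 20 arrays were close together and the adult arrays lower and more spread, with adult replicate 1 lowest. The level was 1.65-fold higher at day 20 (adjusted p = 0.00331).

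The sequence between the starts of Col4a1 and Col4a2 is shown because the pair is transcribed in opposite directions from a shared promoter, and only Col4a1 was measured. In RefSeq's rat genome (GRCr8) 76 bases lie between the starts, at chr16:84885521-84885596, printed on the strand of Col4a1. Capitals mark a GC box (GGGCGG, searched on both strands, here on the other strand), which is the letter pattern bound by Sp1-like factors.
Col4a1: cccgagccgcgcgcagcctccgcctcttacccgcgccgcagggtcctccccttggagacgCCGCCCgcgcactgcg
GC boxes were found in 30.5% of all 33469 RefSeq windows of 250 bases before a gene start, and a match is a description of the letters only.

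Col27a1 and Col9a1 rose. Col27a1, a fibrillar collagen best known from cartilage, read 8.16, 8.03 and 8.11 in adult and 7.74, 7.61 and 7.66 at day 20, 1.35-fold higher in adult (8.10 ± 0.07 versus 7.67 ± 0.07, n = 3, adjusted p = 0.00769). The arrays of each age lay within a narrow range, and the ages did not overlap. Col9a1 is a chain of a collagen that decorates fibrils. Its signals were 7.36, 6.87 and 7.03 in adult and 6.81, 6.56 and 6.42 at day 20 (1.40-fold, adjusted p = 0.0416). Adult replicate 2 lay just above day 20 replicate 1. Col9a1 no longer passed when adult replicate 1 or adult replicate 3 was left out, nor without replicate 2 or 3 of day 20 (adjusted p up to 0.115).

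The fibrillar collagens of connective tissue did not pass. Col1a1 and Col1a2 encode the chains of type I collagen, the main fibre of connective tissue, and Col3a1 that of type III. Col1a1 read 7.17, 7.39 and 7.30 in adult and 7.70, 7.53 and 7.49 at day 20. The ages did not overlap, with a difference of -0.29 (95% interval -0.51 to -0.06, adjusted p = 0.069). It passed when genes of low mean signal were left out (adjusted p = 0.0486). Col1a2 had overlapping groups and a difference of -0.19 (interval -0.45 to 0.08), and Col3a1 one of -0.13 (-0.35 to 0.10). Col5a1, a chain of the collagen that nucleates these fibres, was lower in each adult array (-0.23, interval -0.45 to -0.01, adjusted p = 0.123), while Col5a2 and Col5a3 overlapped. Of the 10 fibrillar genes measured, 1 rose, 1 fell and 9 had a difference below 0, with a median of -0.12. The share called was 20.0%, near the 22.7% of all genes.

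The other type IV chains and the remaining collagens did not differ detectably. Col4a3 and Col4a4, which form the type IV collagen of the kidney filter and are neighbours in the genome, had differences of -0.14 (interval -0.34 to 0.07) and -0.03 (-0.25 to 0.19). Of the 15 collagens that are not fibrillar, 13 did not pass, with a median difference of -0.03 over the 15. The share called was 13.3%, beside 22.7% of all genes. Collagen signals clustered in a narrow part of the scale: in 21 of 25 genes both group means lay between 6 and 7.5, around or a little above the array medians. Col14a1, a fibril-associated collagen, varied most within an age. It read 6.52, 6.03 and 6.09 in adult and 6.04, 5.62 and 6.73 at day 20, and its difference was 0.08 (interval -0.49 to 0.65). Its sign turned, to -0.82 (adjusted p = 0.0253), with the pan-endocrine covariate. The 3 probe sets of Col6a4 gave differences of -0.03, -0.10 and 0.16, of which the brightest was used, and none passed.

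Of the 8 laminin and nidogen genes, Nid2, Lamc1 and Lamb2 fell with age, Lama3 rose and 4 did not pass. Over all genes 10.9% were lower in adult and 11.8% higher. Nid2 encodes a nidogen, which ties laminin to type IV collagen. It read 6.13, 6.17 and 6.07 in adult and 7.55, 6.91 and 7.02 at day 20. The adult arrays were nearly equal, and day 20 replicate 1 was the highest. The level was 2.06-fold higher at day 20 (7.16 ± 0.34 versus 6.12 ± 0.05, n = 3, adjusted p = 0.00214), and Nid2 was the only member called under all 16 alternatives tried.

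Lamc1 encodes the gamma chain shared by most laminins, and so marks laminin of many kinds. It read 7.63, 7.84 and 7.71 in adult and 8.53, 8.45 and 8.23 at day 20. The lowest day 20 array stood well above the highest adult array, and the level was 1.60-fold higher at day 20 (8.40 ± 0.15 versus 7.73 ± 0.10, n = 3, adjusted p = 0.00258). Lamb2, a beta chain of basement membranes of vessels, muscle and kidney, read 5.99, 5.94 and 6.20 in adult and 6.73, 6.67 and 6.60 at day 20 (1.54-fold higher at day 20, adjusted p = 0.00267). Lama5, the alpha chain of many adult epithelial and vascular basement membranes, was also lower in each adult array. Its signals were 6.46, 6.38 and 6.45 in adult and 6.95, 6.75 and 6.51 at day 20. The difference of -0.30 (interval -0.57 to -0.04) did not pass (adjusted p = 0.0961), though it passed without day 20 replicate 3 (adjusted p = 0.0262).

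Lama3 and Lamb3 are chains of the epithelial laminin that anchors hemidesmosomes, the junctions that fix epithelial cells to their basement membrane. Lama3 read 6.60, 5.97 and 5.88 in adult and 5.57, 5.38 and 5.66 at day 20. The ages did not overlap, and adult replicate 1 stood above the other two. Lama3 was 1.53-fold higher in adult (6.15 ± 0.39 versus 5.53 ± 0.14, n = 3, adjusted p = 0.037), at signals below the array medians in 5 of 6 arrays. Without adult replicate 1 the difference was 0.39 in place of 0.62 and still passed (adjusted p = 0.0445), while Lama3 failed the threshold without replicate 1 or 2 of day 20 (adjusted p up to 0.123). Lamb3 overlapped between the ages (difference 0.17, interval -0.09 to 0.44). Lama1 and Lamc3 also overlapped, with differences of 0.0039 (interval -0.25 to 0.26) and -0.12 (-0.40 to 0.17).

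The promoter windows of Lamc1, the laminin chain with the largest fall, and Lama3, the chain that rose, are shown because they differ in the motifs they hold, a choice made after the letters were seen. Each is the 250 bases before the gene start in GRCr8, on the gene's strand. Lamc1 lies at chr13:68051987-68052236 on the minus strand and Lama3 at chr18:3952517-3952766 on the plus strand, at a start inside the gene. Capitals mark GC boxes (GGGCGG, either strand) and AP-1 motifs (TGANTCA, the same on both strands).
Lamc1: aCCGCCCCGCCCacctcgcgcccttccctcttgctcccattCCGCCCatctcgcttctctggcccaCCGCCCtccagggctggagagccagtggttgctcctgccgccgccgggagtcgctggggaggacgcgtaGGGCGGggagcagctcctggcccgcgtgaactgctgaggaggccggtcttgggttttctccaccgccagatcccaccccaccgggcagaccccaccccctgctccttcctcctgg
Lama3: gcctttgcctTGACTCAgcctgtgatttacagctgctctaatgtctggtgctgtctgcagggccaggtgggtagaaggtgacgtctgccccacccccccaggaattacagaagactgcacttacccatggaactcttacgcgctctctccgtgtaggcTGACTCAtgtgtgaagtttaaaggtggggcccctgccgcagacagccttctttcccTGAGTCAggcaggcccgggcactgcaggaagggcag
Lamc1 held 5 GC boxes, of which the first pair overlap, and 0 AP-1 motifs, with 71.2% G and C. Lama3 held 3 AP-1 motifs, 240, 92 and 36 bases before the start, and 0 GC boxes, with 58.0% G and C. AP-1 motifs occurred in 6.34% of all RefSeq windows and in 1 of the 43 members that had a window, Lama3. GC boxes occurred in 21 of those 43, in all 5 genes that fell and had a window (Col4a1, Col11a1, Lamc1, Itga2 and Itga5) and in 1 of the 4 that rose (Col27a1). They were in 30.5% of all RefSeq windows. The members' windows were richer in G and C than all windows (median 58.8% against 51.2%), and the contrast between falls and rises was not tested. CCAAT boxes (CCAAT, either strand) were in 11 of the 43 windows and 34.0% of all, and TATA boxes (TATAAA, either strand) in 5 and 12.9%. Windows of Nid2, Lamb2, Itga6 and Itgb4 were not in the table.

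**Figure D3:**
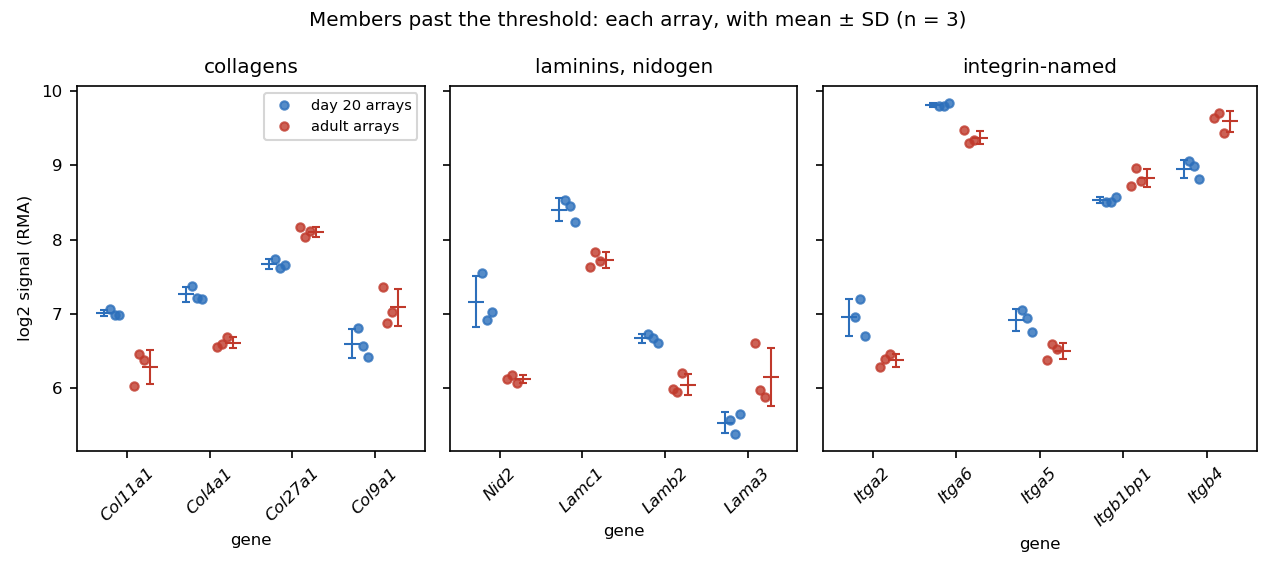
Log2 signals of the 13 genes that passed are plotted for each array, with the day 20 arrays in blue, the adult arrays in red and bars for the mean ± SD (n = 3) beside them. In each of the 13 genes the arrays of one age all lie above those of the other, by the least in Col9a1 and Itgb1bp1.

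Integrin subunits of basement membrane receptors changed in both directions. Itga6 and Itgb4 encode the subunits of the laminin receptor of hemidesmosomes. Itga6 also pairs with Itgb1, whereas Itgb4 has no other partner. Itga6 fell and Itgb4 rose. Itga6 read 9.48, 9.30 and 9.35 in adult and 9.80, 9.80 and 9.85 at day 20, and was 1.36-fold higher at day 20 (9.81 ± 0.03 versus 9.37 ± 0.09, n = 3, adjusted p = 0.00761). Itgb4 read 9.64, 9.71 and 9.43 in adult and 9.06, 8.99 and 8.82 at day 20. All adult arrays exceeded all day 20 arrays, 1.56-fold on average (9.59 ± 0.14 versus 8.96 ± 0.12, n = 3, adjusted p = 0.00362).

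Itgb1, the beta subunit that most matrix-binding alpha subunits share, did not differ detectably. It read 10.70, 10.51 and 10.57 in adult and 10.54, 10.45 and 10.55 at day 20, with a difference of 0.08 (interval -0.12 to 0.28). Itgb1bp1, a cytoplasmic protein that binds the tail of this subunit, was 1.23-fold higher in adult (8.83 ± 0.12 versus 8.53 ± 0.04, n = 3). Its adjusted p of 0.0499 lay at the threshold and was lost in 10 of 16 alternatives, among them 5 of the 6 in which an array was left out (all except adult replicate 1; adjusted p up to 0.164).

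Itga2 and Itga5 fell. Itga2 is the alpha subunit of a collagen and laminin receptor and read 6.28, 6.39 and 6.46 in adult against 6.96, 7.20 and 6.70 at day 20 (1.49-fold higher at day 20, adjusted p = 0.0129). The spread among the day 20 arrays was wider than among the adult ones, with no overlap. Its neighbour in the genome, Itga1, also a collagen receptor subunit, read 7.52, 7.67 and 7.66 in adult and 7.71, 7.89 and 8.06 at day 20. The ages did not overlap, but the difference of -0.27 (interval -0.51 to -0.02) did not pass (adjusted p = 0.113). Itga10 and Itga11, the other alpha subunits that bind collagen, did not pass, with differences of -0.21 and 0.15. Itga5, the fibronectin receptor subunit, read 6.37, 6.59 and 6.53 in adult and 7.05, 6.94 and 6.75 at day 20 (1.33-fold higher at day 20, adjusted p = 0.0226). Itga5 failed the threshold when replicate 1 or 3 of the adult group was left out, or replicate 1 or 2 of day 20 (adjusted p up to 0.0769).

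The remaining beta subunits overlapped between the ages. Itgb5 and Itgb6, which pair with the product of Itgav, had differences of -0.13 (interval -0.38 to 0.12) and 0.03 (-0.32 to 0.38). Itgb3 and Itgb8 had differences of -0.003 and -0.17. Of 8 beta subunits 1 rose and 0 fell, and of 12 alpha subunits 0 rose and 3 fell, beside 11.8% of all genes higher and 10.9% lower in adult. The difference between alpha and beta subunits was not tested. At an unadjusted p under 0.05 there were 4 alpha subunits and 1 beta subunit.

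Integrin subunits of white blood cells had low signals at both ages and did not pass. This group comprised Itgal, Itgam, Itgad, Itgae, Itga4, Itgb2 and Itgb7. Their mean signals over the 6 arrays ran from 4.10 (Itga4) to 5.84 (Itgal), below the array medians in 7 of 7, and differences ran from -0.17 to 0.18. The limma test called 0 of the 7 after adjustment, beside 22.7% of all genes, and 0 at an unadjusted p under 0.05. Of the genes named for integrins, Itgb3bp, which is a centromere protein as well, read 5.17, 4.94 and 4.94 in adult and 5.06, 5.60 and 6.01 at day 20. Its groups overlapped, with a difference of -0.54 (interval -1.01 to -0.07, adjusted p = 0.0984). It passed without day 20 replicate 1 (adjusted p = 0.014) and with array weights.

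Markers of other cell types moved with age beside these genes. Of 15 measured endothelial markers, 14 were lower in adult and 0 higher, beside 10.9% and 11.8% of all genes, and Cldn5 did not pass. Their array means ran from 5.67 to 5.79 in adult and, at day 20, were 6.46 in replicate 2, 6.88 in replicate 3 and highest in replicate 1. The log2 of their summed linear signal ran from 9.64 to 9.77 in adult and from 10.52 to 11.14 at day 20. Pecam1, an adhesion protein of endothelial cells, was at 6.25 ± 0.03 in adult and 7.88 ± 0.22 at day 20, and Cdh5, their cadherin, at 5.92 ± 0.14 and 7.55 ± 0.42 (n = 3). No endothelial marker was below the first quartile in both ages. Among the day 20 arrays, replicate 1 was the highest in this list and in 6 of the 8 members that fell, while Itga2 was highest in replicate 2 and Itga6 in replicate 3. Replicate 2, the lowest day 20 array in this list, was the lowest in Nid2 alone of the 8. Replicate 1 was also the highest day 20 array in the duct and leukocyte lists, and in the acinar list near the top of the signal range. Replicate 3 was the highest in the fibroblast, beta cell and other endocrine lists, and replicate 2 in the Schwann list. In bulk RNA, fewer cells of a type and less RNA per cell cannot be told apart, and the part of the endothelial signal in the falls was not tested.

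Fibroblast and stellate cell markers were lower in adult for 6 of 14 genes and higher for 1, Pdpn, beside 10.9% and 11.8% of all genes. Their array means were 5.93 to 5.998 in adult and 6.39 to 6.55 at day 20, and the log2 of their summed signal 10.96 to 11.03 and 11.49 to 11.82. The falls were those of Vim, an intermediate filament protein of mesenchymal and endothelial cells (7.01-fold higher at day 20), Dcn (2.88-fold), Rgs5, a pericyte marker (2.54-fold), Pdgfrb (1.57-fold), Des (1.48-fold) and Lum. Pdgfra, a receptor that marks fibroblasts, did not pass and read 5.30 ± 0.21 in adult and 5.23 ± 0.14 at day 20 (n = 3). Lum and Fap were below the first quartile at both ages. Of 12 leukocyte markers 2 fell, Cd48 (7.21-fold higher at day 20) and Cd68 (1.84-fold), so the mean of this list leaned strongly on Cd48. A further 3, Ptprc, Cd3e and Cd53, were below the first quartile at both ages. Array means of the leukocyte list were 5.50 to 5.57 in adult and 5.81 to 5.99 at day 20, and the log2 of its summed signal 9.36 to 9.41 and 9.75 to 10.08. The 7 duct markers had 1 rise (Epcam) and 2 falls, Cftr (2.15-fold higher at day 20) and Muc1 (1.69-fold). Their array means were 9.60 to 9.61 in adult and 9.65 to 9.94 at day 20. Of 5 Schwann cell markers 0 passed at an adjusted p under 0.05 by limma and 0 at an unadjusted one. The part of these cells in the members' differences was not tested.

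**Figure D4:**
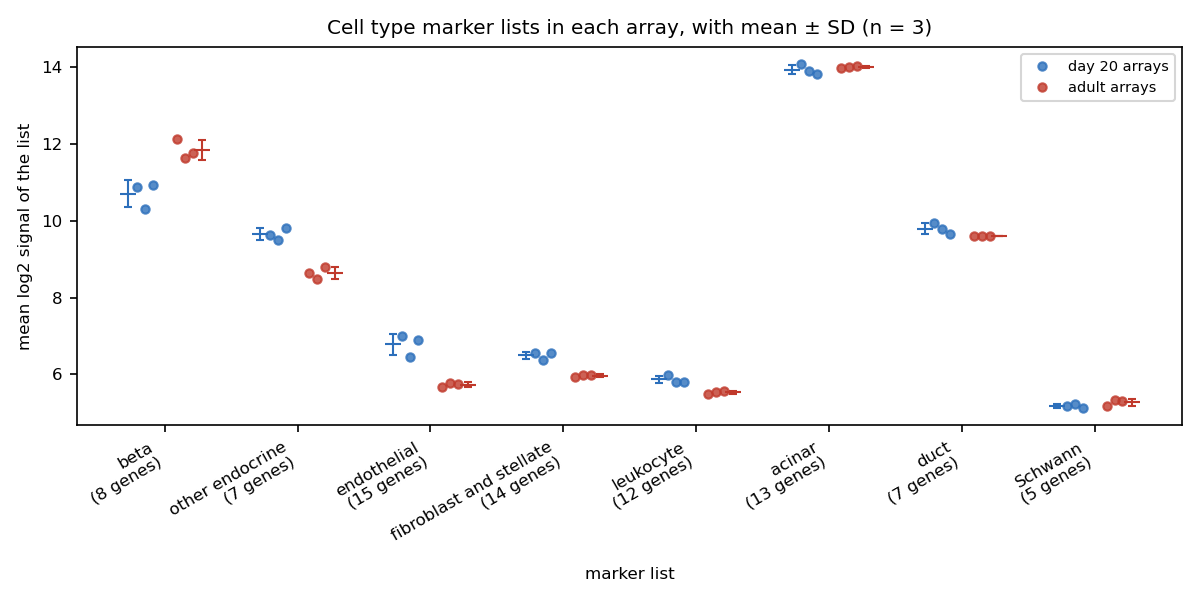
The mean log2 signal of each marker list is plotted for each array, day 20 in blue and adult in red, with bars for the mean ± SD (n = 3). Endothelial, fibroblast, leukocyte, other endocrine and duct lists lie lower in all adult arrays than in all day 20 arrays, the beta cell list lies higher, the Schwann list overlaps, and the acinar list overlaps near the top of the signal range. In the leukocyte list 10 of 12 genes did not pass the threshold, and in the duct list 4 of 7. Cd48 had the largest difference of the leukocyte list and Cftr of the duct list (7.21-fold and 2.15-fold higher at day 20). The means of these lists leaned strongly on these genes.

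Genes that build and crosslink collagen changed in both directions. Of 26 measured, 3 rose and 6 fell (median difference 0.03), beside 11.8% of all genes higher in adult and 10.9% lower. Sparc, a matricellular protein that binds collagen, was 4.61-fold higher at day 20 (9.40 ± 0.38 versus 7.20 ± 0.29, n = 3, adjusted p = 0.000232). Plod2, which hydroxylates collagen lysines for crosslinks, was 2.10-fold higher at day 20 (6.06 ± 0.16 versus 4.99 ± 0.20, adjusted p = 0.000745). Loxl4 and Loxl2, lysyl oxidases that crosslink matrix, were 1.95-fold and 1.65-fold higher in adult (adjusted p = 0.00214 and 0.0443). Loxl2 failed the threshold without adult replicate 1, and also without replicate 1 or 2 of day 20 (adjusted p up to 0.141).

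Matrix proteases and their inhibitors gave 1 rise and 5 falls among 19 genes (median difference -0.10), beside 11.8% and 10.9% of all genes. Adamts1, a secreted protease, was 3.74-fold higher at day 20 (8.16 ± 0.05 versus 6.26 ± 0.18, n = 3, adjusted p = 3.5e-05). Among the inhibitors of metalloproteases Timp1 fell (1.64-fold higher at day 20, adjusted p = 0.00681) and Timp2 rose (1.58-fold higher in adult, adjusted p = 0.00226).

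Other matrix glycoproteins and proteoglycans gave 0 rises and 8 falls among 20 (median difference -0.32), beside 11.8% and 10.9% of all genes. The largest falls were those of Dcn, the proteoglycan decorin, which is in the fibroblast list too (2.88-fold higher at day 20, adjusted p = 0.000447), and of Thbs1, thrombospondin 1 (2.81-fold, adjusted p = 0.000132). Vcan and Lum, counted among the 8, had signals below the first quartile at both ages. Leaving out 1 array gave 3 to 7 calls in this list, the fewest without adult replicate 3, against 5 without adult replicate 1 and 4 without day 20 replicate 1 or 2.

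Integrin adaptors and other focal adhesion genes gave 1 rise and 6 falls among 24 (median difference -0.07), beside 11.8% and 10.9% of all genes. Fermt1, counted among the 6, had signals below the first quartile at both ages. Cav1, the caveolar coat protein that is also abundant in endothelial cells, had the largest fall of the list, 9.21-fold higher at day 20 (8.71 ± 0.56 versus 5.50 ± 0.14, n = 3, adjusted p = 8.1e-05). Tns1, the adaptor tensin, was 1.99-fold higher at day 20 (adjusted p = 0.00164). Rsu1, a partner of the integrin-linked kinase complex, rose (1.34-fold, adjusted p = 0.0187), but failed the threshold when replicate 2 or 3 of the adult group or replicate 1 or 2 of day 20 was left out (adjusted p up to 0.0713). Leaving out 1 array gave 3 calls (without adult replicate 2 or day 20 replicate 1 or 2), 4 (without adult replicate 1 or 3) or 6. The remaining 17 genes, among them the kinases Ptk2 and Ilk and the talin Tln1, did not pass.

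Other receptors of laminin and collagen, listed together with the sarcoglycan Sgce, moved both ways. There were 2 rises and 2 falls among the 8 genes, beside 11.8% and 10.9% of all genes. Sdc4, a syndecan, was 2.08-fold higher in adult (11.33 ± 0.09 versus 10.27 ± 0.22, n = 3, adjusted p = 0.000635), and Ddr1, a receptor kinase for collagen, 1.29-fold (adjusted p = 0.0329). Bcam, a laminin receptor that binds the product of Lama5, fell from 8.03 ± 0.23 at day 20 to 7.45 ± 0.07 in adult (adjusted p = 0.00949). Sgce was 2.48-fold higher at day 20, where its arrays were widely spread (6.93 ± 0.69 versus 5.62 ± 0.17, adjusted p = 0.0119). Ddr1 failed the threshold when replicate 2 or 3 of either age was left out (adjusted p up to 0.115).

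**Figure D5:**
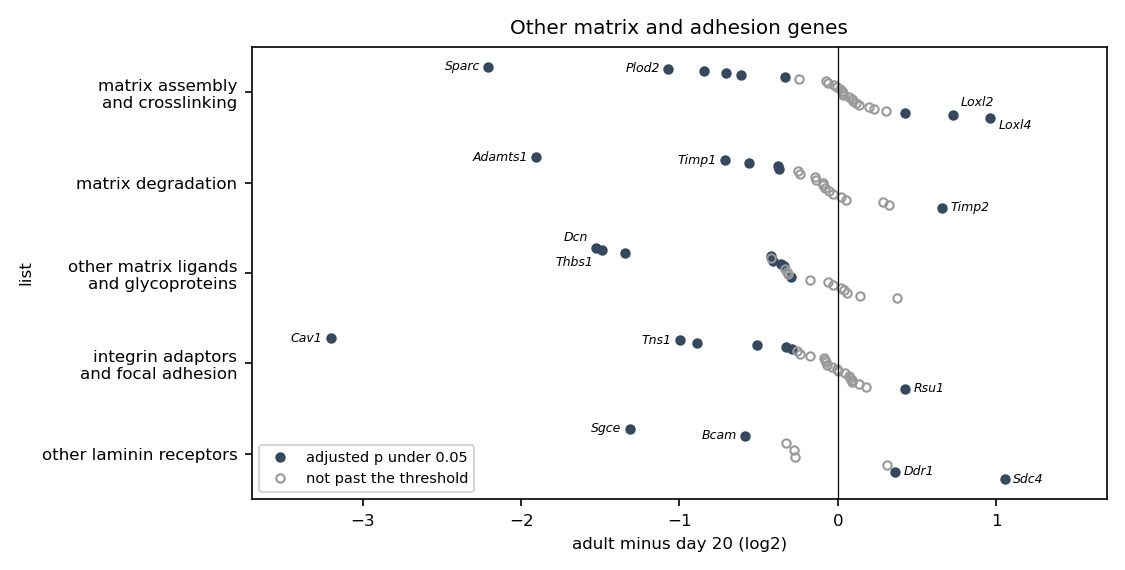
Each point is a gene of the other matrix and adhesion lists, placed by its difference (adult minus day 20, log2) and filled where it passed the threshold. Gene names mark up to 2 of the largest rises and 2 of the largest falls in each list.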

How the data were processed

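Gene expression was measured with 1 Affymetrix array for each of 6 preparations, 3 adult and 3 of day 20, grouped by the labels. The authors deposited 1 log2 signal per probe set and array, made with RMA per the submitters' processing notes. The log2 scale was read from the range of the values. The software version, the annotation and the build are each not given in the sources used here. Quantile normalization within RMA makes array distributions alike, so signals are relative to the other genes of an array.

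Of 29214 probe sets 15310 carried 1 gene symbol, 323 several and 13581 were not listed in the platform annotation used here. Symbols were updated through RefSeq's gene table. The probe set of highest mean over all arrays stood for each of 14506 genes. Ages were compared with limma 3.58.1 (R 4.3.3, lmFit and eBayes, two-sided) on all genes, with Benjamini-Hochberg adjustment and a threshold of 0.05, and the fit was tested on simulated data. Intervals are 95% and unadjusted, from the fit.

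The members, the gene and marker lists and the tests were chosen with earlier results of these data known. Any member could be named, and array values were given for a fixed set of members and for those past the threshold with a mean of at least 6 in the higher group. From each other list the rule took the 2 largest rises and falls that met these limits. Genes named beside a count, and all marker genes given with values other than the insulin genes, were chosen after their values were seen. Alternatives covered normalization, a filter on low signal, the variance model, the choice of probe set, array weights, a 1.2-fold threshold, a replicate block, the mean of 12 pan-endocrine genes as a covariate and leaving out each array. Promoter windows are RefSeq's for GRCr8, cut to the 250 bases before the start.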

Additional observations from a re-analysis of the deposited data

How the results depend on the processing

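No member that passed changed direction under any of the 16 alternatives in which it was tested, and 9 of the 13 stayed called with each array left out in turn (all but Col9a1, Lama3, Itga5 and Itgb1bp1). Of the 44 members that did not pass, 40 passed under no alternative.

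Against a 1.2-fold change in place of 0, calls fell to 0 collagens higher, 0 laminins higher, 0 integrin-named genes higher and 0 lower, and to 4 of 9 matrix assembly genes, 2 of 6 degradation genes, 3 of 8 other ligands, 3 of 7 adaptors and 2 of 4 other receptors. The collagens Col4a1 and Col11a1, and Nid2, Lamc1 and Lamb2, stayed called lower in that test. With the pan-endocrine covariate 0 collagens were called higher and 1 lower, Col14a1, which was not called in the main fit. Col4a1 and Col11a1, the collagens called lower in the main fit, did not pass. The other calls with the covariate were 0 laminin genes higher and 1 lower, 1 integrin-named gene higher and 0 lower, 2 assembly genes, 3 degradation genes, 3 ligands and 1 adaptor, besides those in the list of other receptors. In that list Sdc4, Bcam and Sgce stayed called with the covariate and Ddr1 did not. Integrin-named genes called higher numbered 1 after a second quantile normalization and 1 after median centring. Laminins called higher numbered 0 with the genes of lowest mean signal removed, which takes Lama3 out of the test.

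Leaving out 1 array gave 1 to 2 collagens higher and 2 lower, 0 to 1 laminin genes higher and 3 to 4 lower, and 1 to 2 integrin-named genes higher and 2 to 3 lower. It gave 6 to 8 assembly genes, 4 to 6 degradation genes, 3 to 7 ligands, 3 to 6 adaptors and 3 to 4 receptors.

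Over all genes 1718 were higher and 1576 lower. These counts were 446 and 487 against a 1.2-fold change, 307 and 466 with the covariate, 1065 and 1219 without day 20 replicate 1 and 1083 and 1076 without day 20 replicate 2. Same-numbered preparations did not deviate together (correlations -0.19, 0.19 and -0.21), so the numbers were not taken to pair them. A replicate block gave 1384 higher and 1225 lower, 1 integrin-named gene higher in place of 2, and 3 ligands in place of 8. Itga5 (adjusted p = 0.0543) and Itgb1bp1 (0.1) were not called under the block.

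Detection calls were not used here, so the signals of the 30 members below the array median are not shown to be above background.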
